A study of Homo sapiens with 9 samples.

Results

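The comparison described here set MDA-MB-231 cells that express ASAH1 shRNA #2 against MDA-MB-231 cells that express a nonspecific (NS) shRNA, and its members are the genes read well enough to be tested. Of 26485 genes listed, 14250 had a mean normalized count of at least 10 over the 6 libraries of the comparison and were tested. The other 12235 had a lower mean, and 5979 of these were at 0 in each of the 6 libraries. MDA-MB-231 is a line established from a triple-negative human breast tumour and has a mesenchymal appearance. The series holds 9 libraries of poly(A) RNA, 3 per group, and the 3 with ASAH1 shRNA #1 are used here only for values side by side. Cells of every group were grown in the same medium with fetal bovine serum and stably express their hairpin, per the labels. Each arm of the comparison rests on 1 hairpin sequence. The methods describe 3 biological replicates per group. Nothing states that these came from separate transductions, so p-values measure the spread between these libraries.

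ASAH1 encodes acid ceramidase, the lysosomal enzyme that splits ceramide into sphingosine and a fatty acid. Sphingosine can then be phosphorylated by sphingosine kinases to sphingosine 1-phosphate, which acts through cell surface receptors. Ceramide is known to restrain proliferation and to promote cell death and stress signalling, and acid ceramidase keeps its level low in many tumours.

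NS shRNA libraries held 30989598 to 34867548 reads on genes, and those with shRNA #2 35653318 to 49659106. The first principal component, with 84.9% of the variance, separated the groups, and no library stood apart on it. NS shRNA replicate 3 alone held 786 genes that had a read in no other library, against 177 to 265 for the other 5. Markers of the line were present in both groups, with summed normalized counts over VIM, CD44, AXL, ZEB1, MSN, PLAU, CAV1 and S100A4 of 256331 to 258252 with NS shRNA and 213540 to 216101 with shRNA #2. Of 10 luminal markers, ESR1, PGR, FOXA1, ESRP1 and GRHL2 had at most 13 reads in any library, and the summed level of the list was 13707 to 16526 with NS shRNA and 9798 to 12026 with shRNA #2. The fibroblast marker DCN had at most 3 reads, the endothelial markers CDH5, VWF and TEK at most 12, and 5 of the immune markers at most 14. The summed levels of the 3 lists were lower in every library with shRNA #2: 1577 to 1754 against 2324 to 2381 for 6 fibroblast genes, 213 to 271 against 454 to 509 for 5 endothelial genes, and 2018 to 2147 against 3300 to 3691 for 7 immune genes. Their tested members did not all fall, with 2 of 5 fibroblast, 2 of 2 endothelial and 1 of 2 immune genes lower and 1 fibroblast gene, COL1A2, higher. Every library came from MDA-MB-231 cells, so these sums describe marker transcripts in that line. In bulk RNA, fewer cells with a transcript and less of it per cell cannot be told apart.

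ASAH1 itself was strongly reduced. Its normalized count was 4787, 4898 and 4871 with NS shRNA and 779.6, 807 and 762 with shRNA #2, so the groups lay far apart. Group means were 4852 ± 57.9 for NS shRNA and 783 ± 22.6 for shRNA #2 (SD, n = 3 each), so 16.1% of the level was left. The log2 fold change on the scale of log2(normalized count + 1), used throughout and given in parentheses after gene names from here on, was -2.63 (standard error 0.06, limma adjusted p = 5.42e-10). A two-sided exact permutation test gave p = 0.1, the smallest value that 3 libraries against 3 allow. ASAH1 lies on chromosome 8 from 18055992 to 18084961 (GRCh38). Among genes often used as a reference, ACTB, encoding beta-actin, fell by 0.52 on the log2 scale and GAPDH by 0.21.

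Across the genome the response was broad. Of the 14250 genes, 4780 were higher with shRNA #2 (33.5%) and 4758 lower (33.4%) at a limma adjusted p below 0.05, and 4712 (33.1%) did not pass. The balance of directions depends on the scaling, which in the deposited values centres the typical gene near no change. Under upper quartile scaling 3860 genes were higher and 5467 lower, and the median over all genes moved to -0.08. Most of these changes were small. A log2 fold change beyond 1 was reached by 798 of the higher genes (5.60% of all tested) and 1188 of the lower (8.34%). Beyond 2 there were 159 higher and 254 lower genes, and beyond 3 there were 52 and 88. Larger changes were thus more often downward. The median over all genes was 0.01 and the middle of the distribution ran from -0.42 to 0.38 (quartiles). In 9968 genes (70.0%) the 3 libraries of one group all lay above the 3 of the other, so a gene whose groups do not overlap is the usual case here. The direction differed with abundance: 346 of 641 genes with a mean above 10000 rose and 128 fell, while 495 of 2668 genes with a mean of 10 to 100 rose and 856 fell.

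The largest rises were seen in genes that the NS shRNA cells hardly expressed. MAGEA12, a cancer-testis antigen normally confined to germ cells and tumours, had 0, 1.06 and 0 normalized counts with NS shRNA and 1241, 1255 and 1330 with shRNA #2. This rests on 1 read in the NS shRNA group against 4157, a ratio of 3620.0 with a 95% counting interval from 650.0 to 143000.0 (exact, Clopper-Pearson). CSAG1, a cancer-testis gene that neighbours MAGEA12 on chromosome X, had 1.13, 1.06 and 0 and then 474, 494 and 557, 2 reads against 1666, a ratio of 726.0 (interval 201.0 to 6000.0). Both belong to families with near-identical copies, and reads shared by such copies cannot be assigned to 1 of them. By the rule of at most 3 reads in every library of one group and at least 50 in every library of the other, 6 genes were read almost only with shRNA #2. They are MAGEA12, CSAG1, the long noncoding RNA LINC01133, VWA5A, the imprinted gene MKRN3 and MAGEC2, another cancer-testis antigen. For LINC01133 the ratio was 155.0 (60.2 to 570.0), for VWA5A 62.8 (21.2 to 307.0), for MKRN3 180.0 (32.0 to 7160.0) and for MAGEC2 159.0 (28.3 to 6330.0). In the other direction 2 genes met the rule. CHRDL1, a secreted BMP antagonist, had 56, 70 and 107 reads with NS shRNA and at most 2 with shRNA #2. ST6GAL1, the sialyltransferase that adds terminal sialic acid to N-glycans, had 78, 55 and 71 and then at most 1. All intervals cover counting error only. The rule chose these genes by the same reads, so large ratios were fixed in advance and the intervals are no test of them.

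Other genes rose from a low but readable level. PTGFRN, a membrane protein that partners tetraspanins, had a normalized count of 11.3, 4.26 and 7.96 with NS shRNA and 1042, 1058 and 1001 with shRNA #2. The log2 fold change was 6.95 (standard error 0.26, limma adjusted p = 1.49e-08), with no overlap between the groups. NTF3, a neurotrophin, rose from 9.03, 0 and 2.99 to 242, 252 and 206, a log2 fold change of 6.09 whose standard error of 0.64 was the widest among the 15 largest rises. MAL2, which takes part in apical transport of epithelial proteins, was expressed in both groups and rose from 193, 194 and 197 to 4965, 4765 and 5032 (4.65, standard error 0.06). IL11, a cytokine of the interleukin 6 family, rose from 122, 93.7 and 85.6 to 1535, 1343 and 1507 (3.86). HES7, a repressor of the Notch pathway, rose by 4.22 and GRAMD1B, which carries cholesterol from the plasma membrane to the endoplasmic reticulum, by 3.98. In all of these the lowest shRNA #2 library lay above the highest NS shRNA library, which the choice of the largest rises required. PSG6 (4.43) and PSG11 (3.25), which encode pregnancy-specific glycoproteins, also rose, but the PSG family has near-identical copies and the share of each is uncertain. The long noncoding RNAs LINC01088 (3.35) and UCKL1-AS1 (3.61), FBXL16 (3.33) and the small nucleolar RNA SNORA71C (3.19) completed the 15 largest rises.

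**Figure D1:**
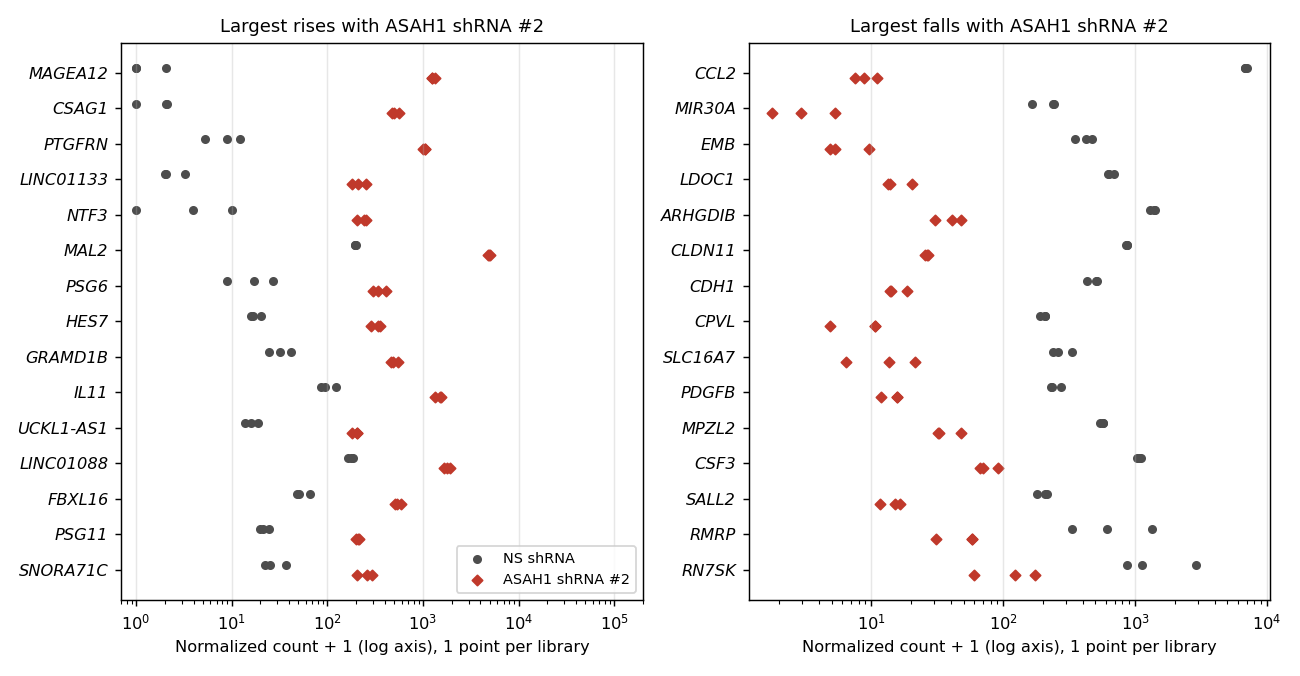
Normalized count plus 1 (log axis) of the 15 genes with the largest rise (left) and the largest fall (right) among genes with a mean of at least 100, 1 point per library, circles for NS shRNA and diamonds for ASAH1 shRNA #2. In each of the 30 genes the 3 circles and the 3 diamonds do not overlap, which was a condition of the choice. Among the falls RMRP and RN7SK show the widest spread of circles.

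The largest fall was that of CCL2, the chemokine that draws monocytes into tumours. Its normalized count was 6854, 6784 and 7003 with NS shRNA and 6.47, 7.77 and 10.1 with shRNA #2, which makes a log2 fold change of -9.58 (standard error 0.14, limma adjusted p = 2.72e-11). EMB, a partner of monocarboxylate transporters, fell from 347, 419.7 and 466 to 4.31, 3.89 and 8.53 (-6.02), and SLC16A7, one of those lactate and pyruvate transporters, fell from 237, 258 and 329 to 20.5, 12.6 and 5.43 (-4.47). CDH1, encoding the adherens junction protein E-cadherin, fell from 431, 516 and 505 to 12.9, 17.5 and 13.2 (-4.97). CLDN11, a tight junction claudin, fell from 873, 871 and 853 to 25.9, 24.3 and 25.6 (-5.05), and MPZL2, an adhesion protein of epithelia, fell from 539, 565 and 567 to 31.3, 31.1 and 46.5 (-3.93). ARHGDIB, an inhibitor of small GTPases, fell from 1379, 1287 and 1406 to 29.1, 39.8 and 46.5 (-5.13). PDGFB, a growth factor for mesenchymal cells, fell from 233, 230.1 and 271 to 10.8, 14.6 and 14.7 (-4.10). The granulocyte factor CSF3 fell from 1101, 1066 and 1030 to 69.0, 66.1 and 90.8 (-3.82). In none of these did a library of one group reach the range of the other, which the choice of the largest falls required. LDOC1 (-5.37), the carboxypeptidase CPVL (-4.60) and the transcription factor SALL2 (-3.82) fell as well.

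MIR30A, RMRP and RN7SK also stand among the 15 largest falls. Their RNAs are processed from a precursor or lack a poly(A) tail, and the libraries were selected for poly(A). The MIR30A entry, which counts reads over the precursor locus and not the mature microRNA, fell from 239, 238 and 165 to 4.31, 1.94 and 0.776 (-6.13). RMRP, the RNA of RNase MRP, had 332, 1329 and 614 with NS shRNA and 57.1, 30.1 and 56.6 with shRNA #2, and RN7SK, the RNA that holds the elongation factor P-TEFb inactive, had 873, 2899 and 1124 with NS shRNA and 121, 59.3 and 172 with shRNA #2. For both, NS shRNA replicate 2 was far above the other NS shRNA libraries, and the folds (-3.78 and -3.71) have standard errors of 0.42 and 0.44.

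By the number of reads gained or lost, the changes fell on abundant genes. FTL, the light chain of ferritin, which stores iron, gained most, from 70726, 72261 and 62420 to 130583, 120934 and 139725 normalized counts (0.93). SLC38A2, a carrier of neutral amino acids, rose from 21942, 24151 and 26133 to 81336, 86873 and 78322 (1.77), and SLC5A3, the myo-inositol carrier, from 17924, 21092 and 22122 to 81220, 79766 and 72938 (1.94). VEGFA, which drives blood vessel growth, rose from 9893, 10632 and 11280 to 55753, 54637 and 53301 (2.37). The actin crosslinker FLNA (0.63), the integrin subunit ITGA3 (1.04) and the glycolytic enzyme ENO1 (0.42) were also among the 8 largest gains. The largest loss was that of ACTB, from 200225, 192418 and 181147 to 133619, 129911 and 135862 (-0.52). IGFBP4, which binds insulin-like growth factors, fell from 95697, 94812 and 80839 to 49127, 43472 and 54675 (-0.88), and CSF1, the macrophage growth factor, from 64589, 68396 and 69426 to 30356, 28689 and 28956 (-1.20). TGM2, a protein crosslinker, fell from 34487, 35554 and 38483 to 11018, 11396 and 10285 (-1.73). The lysosomal protease CTSD (-0.39), the intermediate filament gene VIM (-0.67), gamma-actin ACTG1 (-0.33) and the chaperone CALR (-0.45) were the others. In each of the genes named here the groups did not overlap, which was a condition of the choice.

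Gene lists put these changes into pathways. Among 36 lists, the amino acid response, aminoacyl-tRNA synthetases, heat shock proteins, immediate early genes, ERK targets and NRF2 targets held mostly genes that rose. Interferon-stimulated genes, mitotic genes, lysosomal genes, epithelial junction genes and subunits of oxidative phosphorylation held mostly genes that fell. Each list is given as counts of members beside the background, in which 33.5% of all genes rose and 33.4% fell, and as a median beside 0.01 over all genes. No test of a list as a whole was made.

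**Figure D2:**
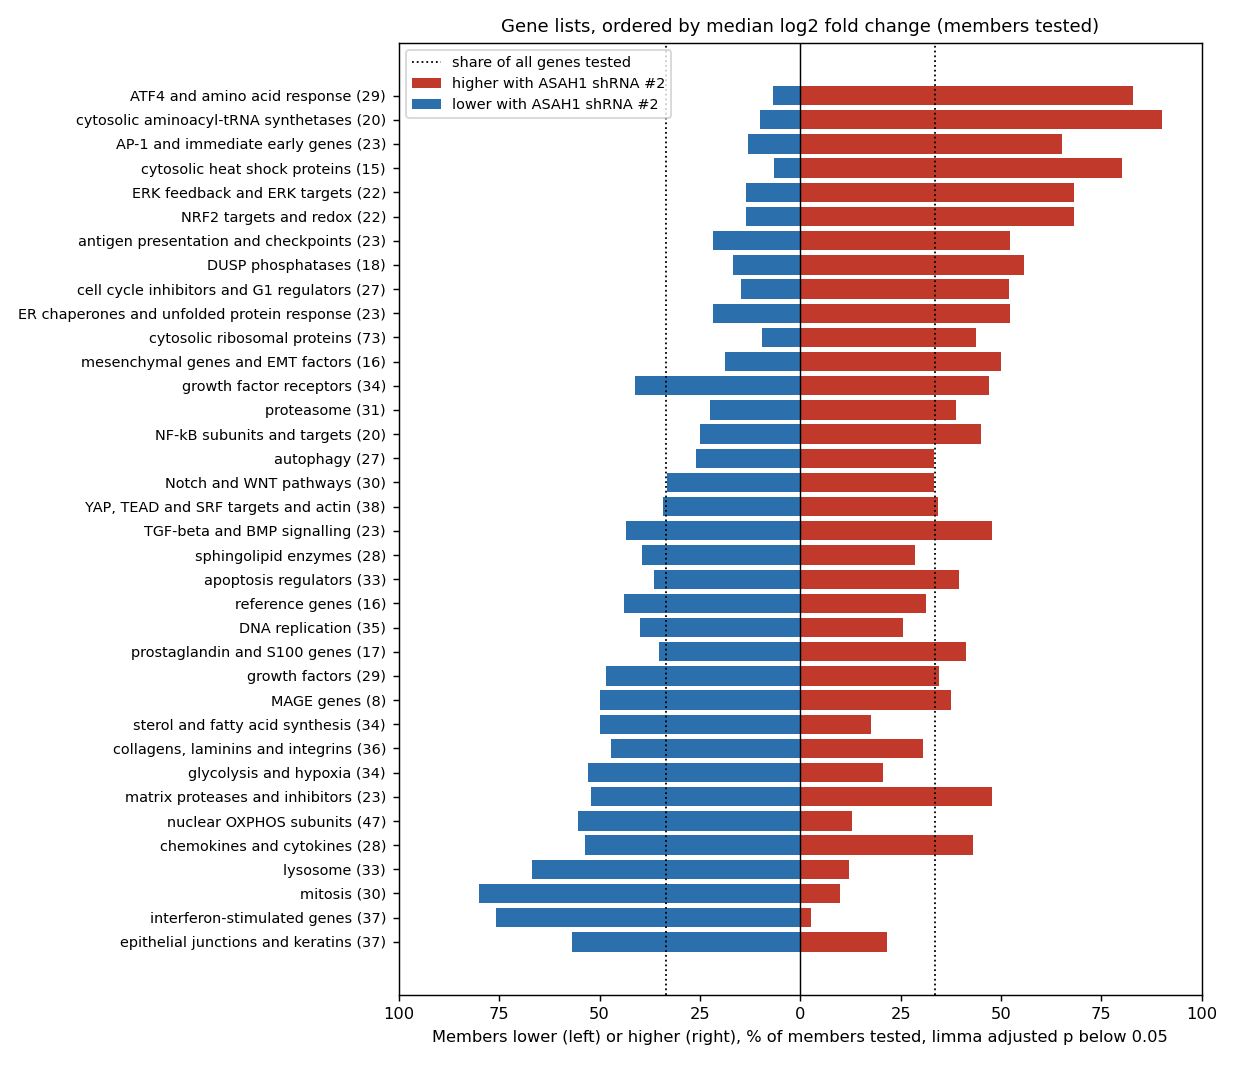
Share of the tested members of each of 36 gene lists that was higher (right, red) or lower (left, blue) with ASAH1 shRNA #2 at a limma adjusted p below 0.05, with the number tested in parentheses. Dotted lines mark the shares over all genes, 33.5% higher and 33.4% lower, and lists are ordered by median from the ATF4 list at the top (1.28) to epithelial junction genes at the bottom (-0.54).

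The enzymes around ASAH1 rose and fell at shares near those over all genes. Of the sphingolipid genes tested, 8 of 28 rose (28.6%), 11 fell (39.3%) and 9 did not pass, beside 33.5% and 33.4% over all genes. The median log2 fold change was -0.01, beside 0.01 over all genes. Without the genes of chromosome 10 beyond 40 Mb, 8 of 25 rose and 9 fell, with a median of 0.06. On the side that makes or frees ceramide, the acid sphingomyelinase SMPD1 fell from 3322, 3485 and 3134 to 1452, 1366 and 1460 (-1.21), and SPTLC2, a subunit of serine palmitoyltransferase, by 0.78 on the log2 scale. CERS1, a ceramide synthase, had 70.0, 51.1 and 53.8 with NS shRNA and 130.5, 66.1 and 126 with shRNA #2, and its groups overlapped (0.82, no longer past the threshold without NS shRNA replicate 2 or shRNA #2 replicate 1). On the side that uses sphingosine, the kinase SPHK1 rose from 516, 496 and 355 to 925, 639 and 921 (0.86) while SPHK2 fell by 0.87 on the log2 scale. The sphingosine 1-phosphate lyase SGPL1, which ends the pathway, fell from 3817, 3720 and 3817 to 1821, 1859 and 1669 (-1.09). The ceramidase ACER2 fell by 1.24, and the glucosylceramide synthase UGCG had 0.09 and did not pass. SGPP2, a phosphatase of sphingosine 1-phosphate, had the largest rise (2.63) on few reads, from 4.52, 2.13 and 0.995 to 19.4, 27.2 and 13.2.

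Lysosomal genes were mostly lower. Of 33 tested, 22 fell (66.7%), 4 rose and 7 did not pass (median log2 fold change -0.39). CTSH, a lysosomal aminopeptidase, fell from 3679, 3626 and 3118 to 1292, 1137 and 1398 (-1.45), and the cholesterol carrier NPC2 fell from 10672, 10013 and 9778 to 4865, 5270 and 5036 (-1.01). Its partner NPC1, in the lysosomal membrane, rose from 6775, 6582 and 7252 to 8994, 8994 and 7840 (0.32). TFEB, the transcription factor known to switch lysosomal genes on, was itself higher, from 475, 434 and 459.9 to 771, 654 and 811 (0.70). The glycosidases GLB1 (-0.84), GAA (-0.75) and HEXA (-0.47) and the proteases CTSB (-0.66) and CTSD fell, whereas the proton pump subunit ATP6V1B2 rose (0.28). Autophagy genes did not share the direction: of 27, 9 rose and 7 fell (median log2 fold change 0.08). The cargo receptor SQSTM1 rose from 37759, 38246 and 34101 to 63326, 56556 and 67268 (0.76) and TAX1BP1 by 0.66, while MAP1LC3A fell by 1.51 and WIPI2 by 0.91.

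Genes of the amino acid response rose together. ATF4 is the transcription factor of the integrated stress response, and its targets make and import amino acids. Of 29 tested, 24 rose (82.8%), 2 fell and 3 did not pass (median log2 fold change 1.28). ATF4 itself rose from 5316, 5542 and 5051 to 9351, 8774 and 9884 (0.82). CTH, which makes cysteine, had 648, 640.2 and 672 with NS shRNA and 5209, 5488 and 5610 with shRNA #2, equal to a log2 fold change of 3.05 (standard error 0.06, limma adjusted p = 4.30e-10). CHAC1, which degrades glutathione, rose from 173, 146 and 147 to 1061, 946 and 1057 (2.71), and asparagine synthetase ASNS rose from 1601, 1545 and 1575 to 8765, 9229 and 9016 (2.52). The groups of all 3 lay well apart. Carriers rose too, with SLC7A11 for cystine at 2.03, SLC7A5 for large neutral amino acids at 1.29, its partner SLC3A2 at 1.28 and SLC1A5 for glutamine at 1.45. So did the stress factors ATF3 (2.29), CEBPG (1.86), DDIT3 (1.16) and TRIB3 (1.22), and PPP1R15A (2.51), which directs the dephosphorylation of eIF2. In the serine pathway PSAT1 rose (2.46) while PHGDH, the enzyme before it, fell from 66.6, 100.1 and 82.6 to 25.9, 45.7 and 36.5 (-1.20). The other fall was that of DDIT4 (-0.25).

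Cytosolic aminoacyl-tRNA synthetases, which charge tRNAs with amino acids and are in part targets of ATF4, rose in 18 of 20 cases and fell in 2, with each of the 20 past the threshold (median log2 fold change 0.76). The tyrosine enzyme YARS rose from 3920, 3688 and 3916 to 11052, 11189 and 11573 (1.55) and the leucine enzyme LARS from 8192, 8346 and 8102 to 18857, 18540 and 18284 (1.18). The alanine enzyme AARS (1.15) and the isoleucine enzyme IARS (1.00) rose by similar amounts. The falls were those of the glutamine enzyme QARS, from 7366, 7391 and 6972 to 3817, 3703 and 4019 (-0.91), and of the histidine enzyme HARS, from 4504, 4053 and 3995 to 2857, 2835 and 2930 (-0.54).

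Stretches of 90 bases upstream of the annotated start of 4 of these genes are shown because they carry a match to the core of the C/EBP-ATF response element, the known site of ATF4 dimers. The element searched was TGATGNAA on both strands, in windows from 250 bases before to 50 bases after the start. It was found in 3.67% of 27305 promoters, in 5 of 25 promoters of the ATF4 list and in 6 of 16 of the synthetases. Sequences are from RefSeq (GRCh38.p14), read 5′ to 3′ on the strand of the gene, with the match in capitals. They lie at chr15:40953221-40953310 (plus strand), chr7:97872428-97872517 (minus), chr16:70289645-70289734 (minus) and chr9:92293698-92293787 (minus).
CHAC1: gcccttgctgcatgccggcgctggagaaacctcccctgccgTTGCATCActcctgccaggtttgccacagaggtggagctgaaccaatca
ASNS: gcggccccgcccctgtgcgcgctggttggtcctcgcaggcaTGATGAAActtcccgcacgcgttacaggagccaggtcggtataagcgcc
AARS: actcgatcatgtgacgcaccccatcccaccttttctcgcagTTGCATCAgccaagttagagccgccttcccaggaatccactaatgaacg
IARS: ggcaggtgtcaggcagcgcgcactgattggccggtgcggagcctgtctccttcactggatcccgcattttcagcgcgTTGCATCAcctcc
ASNS reads the element forward, and CHAC1, AARS and IARS read it in reverse. The members with a match had a median log2 fold change of 2.29 in the ATF4 list and 0.91 among synthetases, and those without 1.25 and 0.41. A match is a description of letters, and no binding was measured.

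Interferon-stimulated genes, which cells use against viruses, were lower. Of 37 tested, 28 fell (75.7%), 1 rose and 8 did not pass (median log2 fold change -0.54). IFITM1, a membrane protein that blocks viral entry, had 1049, 967 and 1177 with NS shRNA and 116, 144 and 146 with shRNA #2, which makes a log2 fold change of -2.97 (standard error 0.11, limma adjusted p = 1.76e-08). OAS1, which makes the activator of RNase L, fell from 111, 109 and 150.3 to 32.3, 21.4 and 27.1 (-2.15). The exonuclease ISG20 fell by 1.86 and the guanylate-binding protein GBP2 by 1.48 on the log2 scale. Factors that carry the interferon signal to the nucleus were lower as well, STAT2 by 0.71 and IRF9 by 0.68. The rise was that of IRF1, a transcription factor that interferon gamma induces, from 3053, 2897 and 2805 to 6523, 6458 and 6928 (1.19). MX1 (0.08), ISG15 (0.12), IFI6 (0.11) and IFI44L (0.29) did not pass, so the list did not move as 1 block. Of the members tested, 4 lie on the long arm of chromosome 10, and 3 of these fell: IFIT1, from 3305, 3256 and 3258 to 781, 811 and 863, IFIT3 (-1.04) and IFIT2 (-0.19).

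The promoters of 3 genes of the list are shown with matches to the core of the interferon-stimulated response element, the site of IRF9 complexes and of other interferon regulatory factors. The letters searched were GAAANNGAAA on both strands in the same windows. They occur in 3.65% of all promoters and in 18 of 28 of this list. The stretches lie at chr11:313950-314039, chr10:89392480-89392569 and chr15:88638907-88638996, all on the plus strand, with matches in capitals, and IFIT1 holds 2.
IFITM1: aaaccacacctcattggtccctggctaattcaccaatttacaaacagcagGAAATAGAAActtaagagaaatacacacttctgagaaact
IFIT1: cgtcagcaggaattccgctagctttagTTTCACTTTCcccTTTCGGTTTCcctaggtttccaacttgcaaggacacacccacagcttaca
ISG20: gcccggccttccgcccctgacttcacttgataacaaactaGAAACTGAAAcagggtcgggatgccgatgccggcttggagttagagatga
Members with a match had a median log2 fold change of -0.41 and the 10 without one -0.54.

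Genes of mitosis were lower. Of 30 tested, 24 fell, 3 rose and 3 did not pass (median log2 fold change -0.41). MKI67, the proliferation marker Ki-67, had 14123, 12753 and 16236 with NS shRNA and 6444, 7453 and 5169 with shRNA #2, which makes a log2 fold change of -1.19 (limma adjusted p = 1.18e-05). CENPA, the histone of centromeres, fell from 959, 833 and 909 to 391, 473 and 423 (-1.07), the kinase PLK1 by 1.05, the kinesin KIF20A by 1.01 and the cyclins CCNB1 and CCNB2 by 0.65 and 0.91 on the log2 scale. FOXM1, the transcription factor of many of these genes, fell by 0.56. CDC20, an activator of the anaphase-promoting complex, rose from 5084, 4849 and 4640 to 6916, 6429 and 7062 (0.49), and MAD2L1, of the spindle checkpoint, rose by 0.23, though not under upper quartile scaling, and ANLN by 0.19. MKI67, CDK1 (-0.65) and KIF11 (-0.62) lie on the long arm of chromosome 10. DNA replication genes were mixed, with 9 of 35 higher and 14 lower (median log2 fold change -0.05). The licensing factor CDC6 rose from 3680, 3874 and 3650 to 6978, 6855 and 7035 (0.90) and ORC6 by 0.89, while the helicase subunit MCM5 fell from 3901, 3949 and 3869 to 2296, 2074 and 2209 (-0.83) and the ligase LIG1 by 0.79.

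Stretches from 3 mitotic promoters carry the cell cycle genes homology region, the element through which such genes are known to be repressed outside mitosis. The letters searched were TTTGAA on both strands, present in 15.4% of all promoters and in 16 of 24 of this list. They lie at chr10:128126424-128126513 (minus strand), chr2:26785966-26786055 (plus) and chr16:23678799-23678888 (plus), and MKI67 holds 2 matches.
MKI67: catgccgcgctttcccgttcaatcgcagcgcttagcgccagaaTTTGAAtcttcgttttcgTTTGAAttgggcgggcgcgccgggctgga
CENPA: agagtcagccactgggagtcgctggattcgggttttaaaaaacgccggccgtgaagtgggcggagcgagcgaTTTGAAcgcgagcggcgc
PLK1: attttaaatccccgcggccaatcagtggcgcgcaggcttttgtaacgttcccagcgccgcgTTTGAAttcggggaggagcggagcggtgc
Members with a match had a median log2 fold change of -0.36 and the 8 without one -0.53. None of the 10 stretches shown holds a match to either of the other elements searched.

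Regulators of the G1 phase were more often higher than lower. Of 27 tested, 14 rose and 4 fell (median log2 fold change 0.28). CDKN1A, the cyclin-dependent kinase inhibitor p21, rose from 1418, 1339 and 1405 to 5110, 4735 and 5143 (1.85), and GADD45A, a growth arrest gene, from 2176, 1965 and 1721 to 14349, 12655 and 15997 (2.87). Genes that push G1 forward rose as well: CCND2, a D-type cyclin, from 7.91, 7.46 and 9.95 to 101.4, 127 and 144 (3.73), its kinase CDK6 (1.56), CCND1 (0.79) and MYC (0.32). The inhibitors CDKN1C (-1.42) and CDKN2C (-0.64) fell. The list thus holds genes of opposite action on both sides.

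RNAs of known targets of the ERK kinases and of immediate early genes were mostly higher. These values are RNA levels and do not measure ERK activity. By immunoblot, the paper reported less phosphorylated ERK in cells with ASAH1 shRNA. Of 22 ERK genes, 15 rose (68.2%) and 3 fell (median log2 fold change 0.38). PHLDA1 rose from 24895, 24448 and 22714 to 68270, 63195 and 70780 (1.49), the ephrin receptor EPHA4 from 195, 178 and 221 to 625, 629.7 and 517 (1.57) and EPHA2 by 1.41. The feedback inhibitors SPRY2 (0.57), SPRY4 (0.83) and SPRED3 (1.15) rose and SPRY1 fell from 506, 545 and 544 to 264, 266 and 242 (-1.04). The factors ETV4 (0.40) and ETV5 (0.41) rose while ETV1 fell (-0.78). Of 23 immediate early genes, 15 rose and 3 fell (median log2 fold change 0.64). KLF10, which TGF-beta induces, rose from 1493, 1667 and 1507 to 8486, 8723 and 8453 (2.46), the small MAF protein MAFF from 2458, 2435 and 2449 to 8036, 7232 and 8176 (1.67), JUN by 0.88 and FOS by 0.51, the last no longer past the threshold without NS shRNA replicate 3 or shRNA #2 replicate 1. KLF2 (-0.72), NR4A2 (-0.56) and JUND (-0.40) fell. Both lists hold IER3, EGR1 and FOSL1. Dual-specificity phosphatases, some of which act on MAP kinases, rose in 10 of 18 cases and fell in 3 (median log2 fold change 0.30). DUSP2 had 31.6, 32.0 and 21.9 with NS shRNA and 106, 115 and 109 with shRNA #2 (1.93), and DUSP18 fell by 1.25 on the log2 scale.

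**Figure D3:**
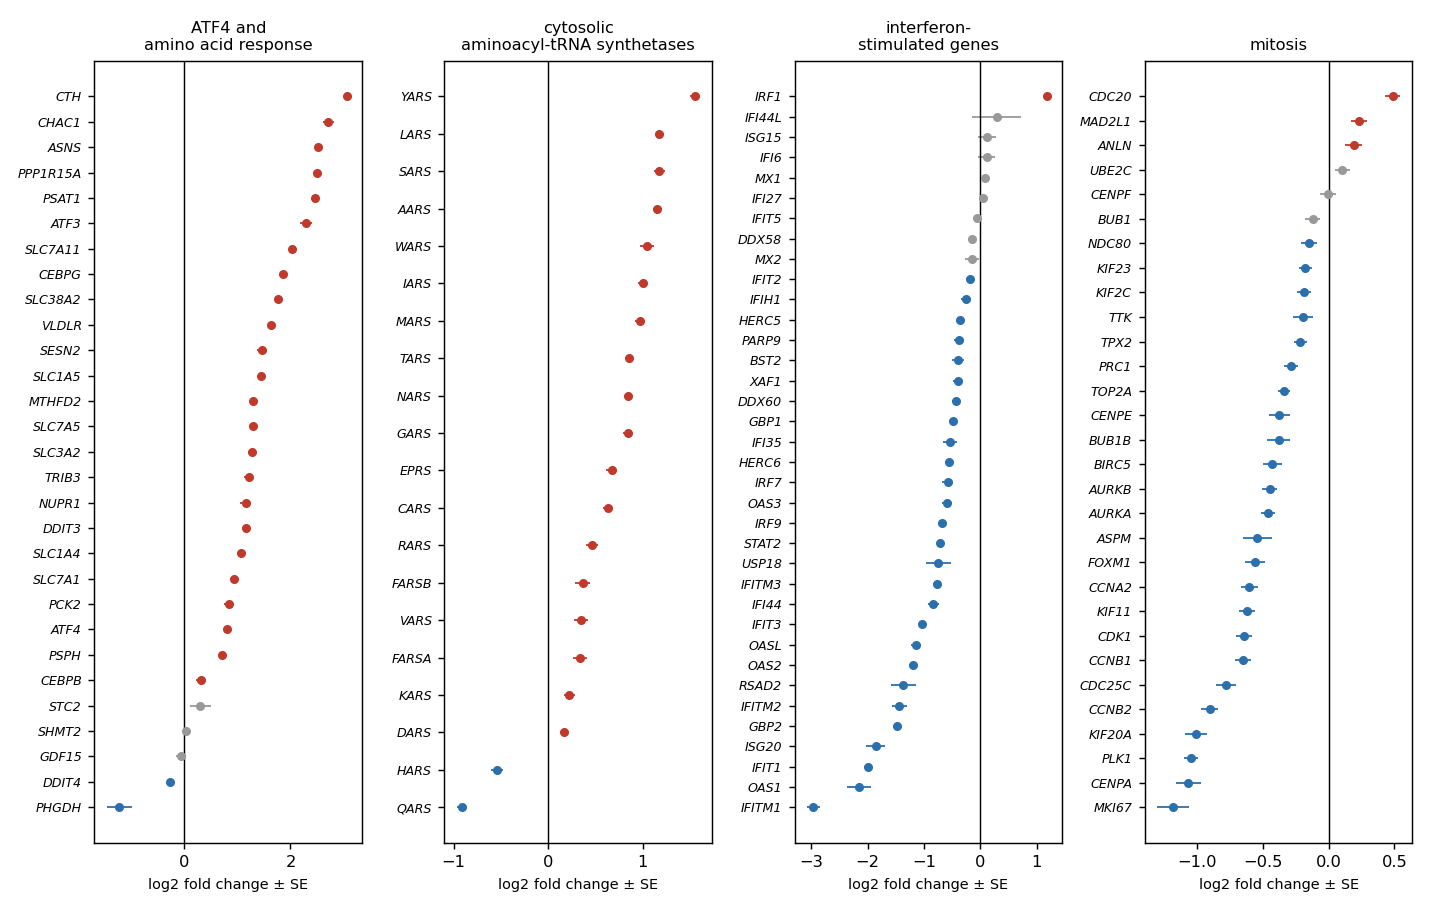
Log2 fold change with its standard error (limma, ASAH1 shRNA #2 against NS shRNA) for tested members of 4 gene lists, red where higher and blue where lower at an adjusted p below 0.05 and grey where neither. 24 of 29 ATF4 genes and 18 of 20 synthetases are red, and 27 of the 36 interferon-stimulated genes drawn and 24 of 30 mitotic genes are blue.

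Protein folding genes rose in the cytosol and in part in the endoplasmic reticulum. Of 15 heat shock proteins, 12 rose and 1 fell (median log2 fold change 0.51). HSPA4, which recharges HSP70, rose from 11617, 11632 and 11133 to 23117, 22433 and 23915 (1.01), the HSP90 partner CHORDC1 from 1923, 2035 and 2119 to 3823, 3925 and 4246 (0.98) and HSP90AB1 by 0.67. BAG3 fell (-0.45) and lies on the long arm of chromosome 10. Among 23 genes of the unfolded protein response, 12 rose and 5 fell (median log2 fold change 0.17). XBP1, its transcription factor, rose from 3677, 4019 and 3371 to 11420, 10191 and 12246 (1.61), the sensor ERN1 that splices XBP1 from 126, 177 and 171 to 426, 379 and 301 (1.22) and the chaperone HSPA5 by 1.18. CALR fell, and so did EDEM1, which sends misfolded glycoproteins to degradation (-0.50).

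Secreted signals changed in both directions, and 27 of 28 tested chemokines and cytokines passed. Of these, 12 rose and 15 fell (median log2 fold change -0.27). Besides CCL2, CSF3 and CSF1, the falls took in CXCL10 (-2.06), CXCL11 (-1.21) and CCL5 (-1.20), which draw T cells, and CXCL1 (-1.12) and CXCL3 (-1.13), which draw neutrophils. Besides IL11, IL24, of the interleukin 10 family, rose from 569, 544 and 547 to 2607, 2697 and 2782 (2.28). TNF (2.25), CSF2 (2.12), IL12A (1.63), IL1A (1.43) and IL6 (1.09) rose as well. PTPRC, CD3E, LYZ and CD79A, defining markers of immune cells, had at most 14 reads in any library. NF-kB genes were divided, 9 of 20 higher and 5 lower (median log2 fold change 0.08). The inhibitors NFKBIB (1.34) and NFKBIE (1.33) rose, the superoxide dismutase SOD2 fell from 10100, 11399 and 11586 to 5484, 5461 and 5165 (-1.04), and the subunit NFKB1 rose (0.31) while RELA had 0.09 and did not pass. Antigen presentation genes were more often higher, 12 of 23 against 5 lower (median log2 fold change 0.32). CD274, the checkpoint ligand PD-L1, rose from 682, 629.6 and 780.4 to 1659, 1887 and 1601 (1.30), and HLA-B (0.83) and HLA-F (0.94) rose, although HLA genes share sequence and reads may pass between them. NLRC5, the activator of such genes, fell (-0.75), and so did the peptide trimming enzyme ERAP2 (-0.86).

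Epithelial genes fell beyond CDH1. Of 37 tested, 21 fell (56.8%), 8 rose and 8 did not pass (median log2 fold change -0.54). Desmosome genes were among them, with DSC2 from 31.6, 29.8 and 40.8 to 1.08, 0.972 and 3.88 normalized counts, and DSP (-1.18), JUP (-1.10) and PKP3 (-1.12). So were the keratins KRT81 (-1.78), KRT8 (-0.77) and KRT7 (-0.50), and CDH3, encoding P-cadherin (-1.41). The luminal markers share genes with this list, such as CDH1 and EPCAM, so they are no separate evidence. Their summed level was 9798 to 12026 with shRNA #2 against 13707 to 16526 with NS shRNA, carried mostly by KRT19. Of the 5 tested markers 3 were lower and 2, GATA3 and EPCAM, higher. The part of this sum in the falls was not tested. Occludin OCLN rose from 133, 139.6 and 173 to 329, 369 and 264 (1.10), the laminin chain LAMB3 from 25038, 26314 and 23142 to 47169, 41003 and 48272 (0.87) and EPCAM by 0.57. Mesenchymal genes did not form a mirror image, with 8 of 16 higher and 3 lower (median log2 fold change 0.12). CDH11, a mesenchymal cadherin, rose from 2006, 2155 and 2237 to 13491, 13644 and 12401 (2.63), and the repressors of E-cadherin ZEB2 (1.03), SNAI1 (0.89) and ZEB1 (0.65) rose, but fibronectin FN1 fell from 9314, 9758 and 11158 to 5176, 5471 and 4438 (-1.004) and TGFBI (-0.69) and VIM fell too.

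In the matrix, 11 of 36 collagens, laminins and integrins rose and 17 fell (median log2 fold change -0.18). The laminin chain LAMA4 fell from 108, 137 and 121 to 14.02, 17.5 and 13.96 (-2.93) and ITGB4, of the hemidesmosome, from 10766, 11329 and 11936 to 5343, 4743 and 4725 (-1.20), while ITGA3 rose. All 23 matrix proteases and inhibitors tested passed, 11 higher and 12 lower (median log2 fold change -0.22). The plasminogen activators moved oppositely. PLAT, the tissue type, rose from 24657, 24212 and 25655 to 65973, 68716 and 62811 (1.41), and PLAU, the urokinase type, fell from 22285, 22505 and 21760 to 6876, 6541 and 7105 (-1.70). The groups of both were far apart, and PLAU and ADAM8 (-1.67) lie on the long arm of chromosome 10. Leaving out the genes of that arm and of chromosome 1 below 80 Mb turned the median of the list to 0.26. MMP16 rose from 100.5, 101.2 and 133 to 385, 383 and 278 (1.63), and MMP11 fell from 312, 289 and 259.8 to 72.2, 53.4 and 62.1 (-2.18).

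Growth factors and their receptors changed in both directions as well. Of 29 growth factors, 10 rose (34.5%) and 14 fell (48.3%), beside 33.5% and 33.4% over all genes (median log2 fold change -0.13). Without the chromosome 10 and chromosome 1 segments that median was -0.31, with 8 higher and 14 lower. Among ligands of the EGF receptor, EREG rose from 257, 319.6 and 321 to 2063, 2178 and 2064 (2.81) and AREG rose (1.26), BTC fell (-0.71), and HBEGF (0.03) and TGFA (-0.13) did not pass. NRG1, a neuregulin that binds ERBB3 and ERBB4, rose (1.82), and EGFR itself rose from 3012, 3707 and 4573 to 9994, 10015 and 7391 (1.29). PGF, of the VEGF family, fell from 280.1, 281 and 226 to 52.8, 43.7 and 48.9 (-2.41), and the PDGF receptor PDGFRB from 874, 947 and 1061 to 405, 446 and 382 (-1.22). Among 34 receptors, 16 rose and 14 fell (median log2 fold change 0.11). In TGF-beta and BMP signalling 11 of 23 rose and 10 fell (median log2 fold change 0.01). ID1, a BMP target that blocks differentiation factors, fell from 4248, 4098 and 3726 to 1265, 1098 and 1326 (-1.71), followed by SMAD6 (-1.26), ID2 (-1.05) and ID3 (-0.86), and FSTL3, which binds activins, rose (1.12). TGFB1 fell by 0.59 on the log2 scale. In the Notch and WNT pathways 10 of 30 rose (33.3%) and 10 fell (33.3%), near the shares over all genes (median log2 fold change 0.03). NOTCH1 rose from 1840, 1970 and 2140 to 5085, 4419 and 4267 (1.21), and NOTCH3 (-1.54) and the WNT receptor FZD1 (-1.36) fell. The YAP, TEAD and SRF list had 13 of 38 higher (34.2%) and 13 lower (34.2%), again near the shares over all genes (median log2 fold change 0.01). The factors YAP1 (0.57), TEAD1 (0.71) and SRF (0.71) rose, while their target ANKRD1, on the long arm of chromosome 10, fell from 20759, 20149 and 20364 to 8320, 8172 and 8662 (-1.28) and the smooth muscle gene TAGLN fell (-0.93).

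Metabolic lists differed from each other. Of 22 NRF2 targets, which protect against oxidants, 15 rose (68.2%) and 3 fell (median log2 fold change 0.34), among them FTL and OSGIN1 (0.73) upward and the exporter ABCC3 downward (-0.61). The gene of NRF2 itself, NFE2L2, rose (0.25), though not under upper quartile scaling. Subunits of oxidative phosphorylation encoded in the nucleus fell in 26 of 47 cases and rose in 6 (median log2 fold change -0.25). NDUFB5, of complex I, fell from 3279, 3401 and 3120 to 1427, 1452 and 1575 (-1.14), COX5A, of complex IV, by 0.83 and SDHA, of complex II, by 0.60, whereas cytochrome c, CYCS, rose (0.84). In glycolysis and hypoxia 18 of 34 fell and 7 rose (median log2 fold change -0.20). The glucose carrier SLC2A1 rose from 16596, 17180 and 16968 to 28154, 27635 and 27403 (0.71) beside VEGFA, and the carbonic anhydrase CA12 fell from 692, 664 and 759 to 155, 226 and 190.0 (-1.90). In this list 4 members, HK1 (-0.66), PGAM1 (-0.70), BNIP3 (-0.57) and P4HA1 (-0.29), lie on the long arm of chromosome 10 and all fell. Of 34 genes of sterol and fatty acid synthesis, 17 fell and 6 rose (median log2 fold change -0.16). Their factors SREBF1 (-0.81) and SREBF2 (-0.30) fell and so did the desaturase SCD (-0.92), on the same arm.

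Of the remaining lists, 32 of 73 ribosomal protein genes rose and 7 fell (median log2 fold change 0.17), with small changes such as 0.87 for RPL26, and with many pseudogenes that could share their reads. Proteasome genes had 12 of 31 higher and 7 lower (median log2 fold change 0.09). Regulators of apoptosis had 13 of 33 higher and 12 lower (median log2 fold change -0.02, and -0.01 without the chromosome 10 and chromosome 1 segments). The death receptor TNFRSF10A rose from 724, 756 and 709 to 2434, 2111 and 2374 (1.66) and the decoy receptor TNFRSF10D from 1022, 1184 and 1211 to 3316, 3497 and 3296 (1.57), while the pro-apoptotic BMF fell (-1.44) as did CASP10 (-1.31). Prostaglandin and S100 genes had 7 of 17 higher and 6 lower (median log2 fold change -0.10), with S100A2 up from 4017, 3595 and 2718 to 7416, 7185 and 9658 (1.24) and the prostaglandin synthase PTGES down from 4560, 4261 and 4100 to 1820, 1633 and 1898 (-1.27). Of 19 MAGE genes 8 were read well enough, with 3 higher, the cancer-testis members MAGEA12, MAGEC1 and MAGEC2, and 4 lower, among them MAGEH1 (-1.50). Reference genes were no steadier than others, 5 of 16 higher and 7 lower (median log2 fold change -0.02), and GUSB had -0.83.

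The direction of change also followed position in the genome. On chromosome 10 beyond 40 Mb (GRCh38), 299 of 422 tested genes were lower with shRNA #2 (70.9%) and 43 higher (10.2%), with a median log2 fold change of -0.58 and quartiles at -0.92 and -0.14. On the same chromosome up to 40 Mb, 35 of 134 were lower and 58 higher (median 0.14). The boundary was chosen after the values were seen, so no test is given. In windows of 10 Mb with at least 15 genes, all 10 on chromosome 10 beyond 40 Mb had medians between -0.85 and -0.23, and 9 of them were among the 14 windows of the genome with a median below -0.3. The arm holds genes of many functions, such as PLAU, IFIT1, MKI67, ANKRD1, SGPL1 and SCD, and PSAP (-0.44), the precursor of the saposins that activate sphingolipid hydrolases, acid ceramidase among them. These were picked from the lists after the region had been seen. The arm was not uniform, since DUSP5 (0.93) and the WNT antagonist DKK1 (0.78) rose. Over the genes of the arm, the median difference of single libraries from the NS shRNA mean was -0.59, -0.57 and -0.59 with shRNA #2 and 0.02, 0.01 and -0.02 with shRNA #1, on the log2 scale. Single windows of the arm differed with shRNA #1. Its libraries had -0.39, -0.31 and -0.325 from 130 to 140 Mb (17 genes), and 0.24, 0.23 and 0.165 from 60 to 70 Mb (33 genes).

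Chromosome 1 showed the opposite below 80 Mb, where 396 of 625 genes were higher (63.4%) and 76 lower (median 0.39), while beyond 80 Mb 267 of 817 were higher and 269 lower (median -0.02). The 8 windows below 80 Mb had medians between 0.31 and 0.61. They were 8 of the 23 windows of the genome with a median above 0.3, so most such windows lay elsewhere. Here the libraries with shRNA #1 lay between, at 0.22, 0.24 and 0.23, against 0.41, 0.39 and 0.42 with shRNA #2. The window from 100 to 110 Mb was low, with a median of -0.51 over 47 genes. There the libraries with shRNA #1 lay at -0.38, -0.49 and -0.36, and those with shRNA #2 at -0.48, -0.48 and -0.5. Chromosome 21 had a median of 0.30 over 133 genes and the window from 10 to 20 Mb of chromosome 6 one of 0.59 over 40. Without both segments, 4341 of 13203 genes were higher and 4383 lower, with a median of 0.01. DNA copy number was not measured, and its part in these values was not tested.

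**Figure D4:**
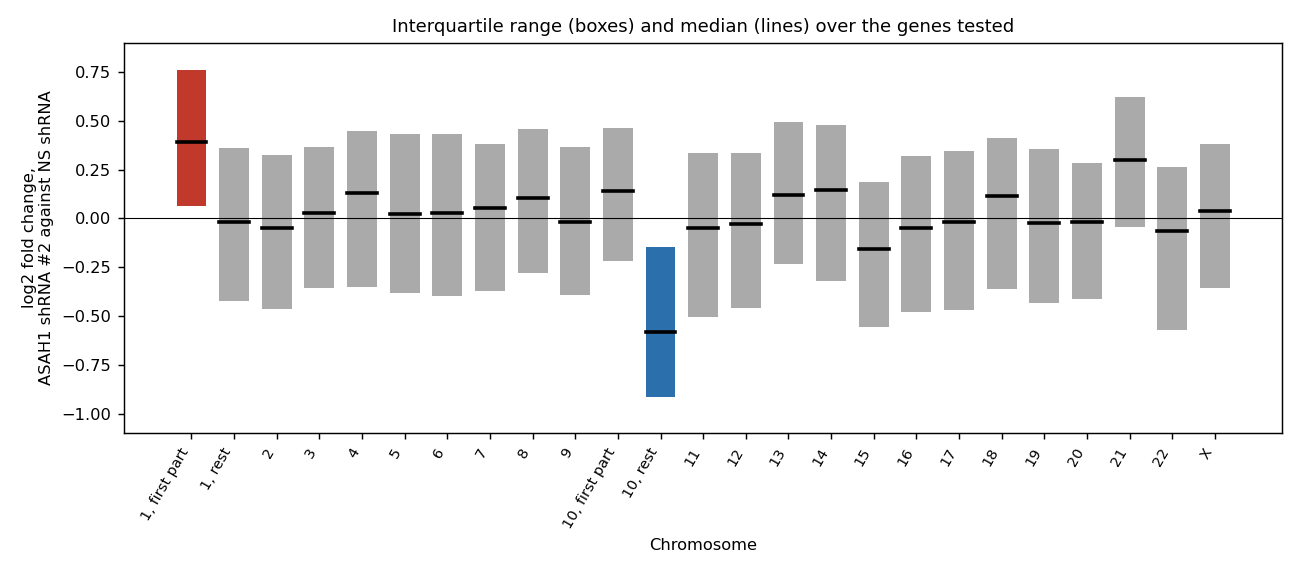
Log2 fold change (ASAH1 shRNA #2 against NS shRNA) of the tested genes by chromosome, with the interquartile range as a box and the median as a line. Chromosomes 1 and 10 are each drawn in 2 parts, divided at 80 Mb and 40 Mb, and the medians of the first part of chromosome 1 (0.39, red) and of the rest of chromosome 10 (-0.58, blue) lie farthest from 0.

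**Figure D5:**
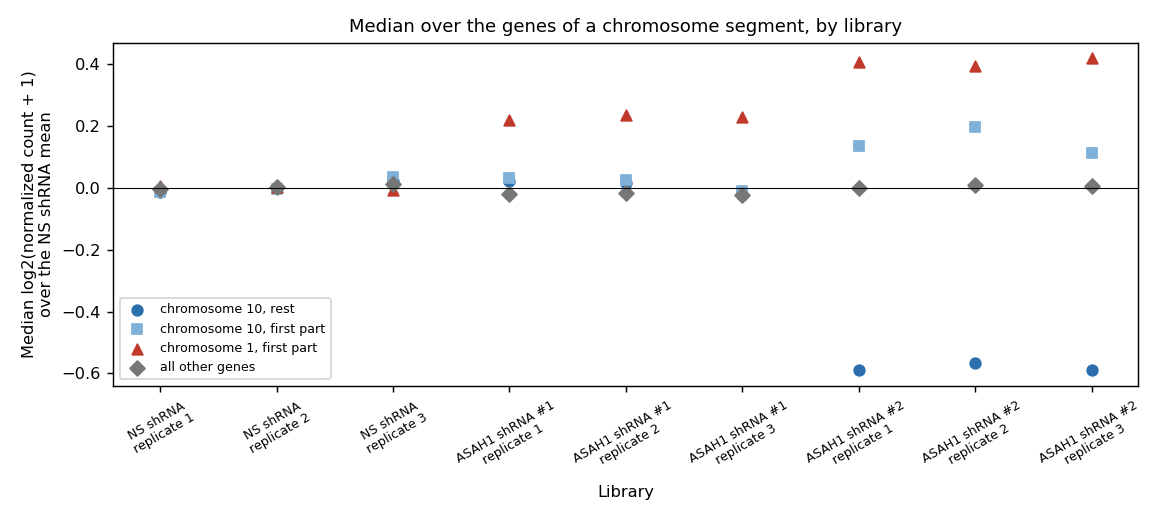
Median over the genes of a segment of log2(normalized count + 1) minus the NS shRNA mean, 1 point per segment in each of the 9 libraries, with chromosome 1 divided at 80 Mb and chromosome 10 at 40 Mb. The rest of chromosome 10 lies near 0 in NS shRNA and ASAH1 shRNA #1 libraries and at -0.59, -0.57 and -0.59 with ASAH1 shRNA #2, and the first part of chromosome 1 lies lowest with NS shRNA and highest with shRNA #2.

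Short noncoding RNAs formed a further group. Of 97 small nucleolar RNA genes tested, 41 were higher (42.3%) and 1 lower (median 0.61), and of 33 microRNA entries 15 were higher and 3 lower (median 0.63). Protein-coding genes had a median of 0.01 over 12841. Small nucleolar RNAs guide the chemical marking of ribosomal RNA, mostly lie within introns of other genes and lack the poly(A) tail for which the libraries were selected.

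Between the hairpins, 9187 genes differed (edgeR quasi-likelihood test over all 9 libraries, adjusted p below 0.05). The genes tested for this had a mean of at least 10 over the 9 libraries. Their number is not given here, so the count carries no share. Whether the differences named below are unusual cannot be read from it. Both comparisons share the NS shRNA libraries. Side by side, from a fit of all 9 libraries for shRNA #1, the log2 fold changes with shRNA #1 and shRNA #2 were -1.76 and -2.63 for ASAH1, -0.29 and 6.95 for PTGFRN, 0.79 and 4.65 for MAL2, -0.79 and -5.05 for CLDN11, -3.41 and -4.97 for CDH1, 2.75 and 3.05 for CTH and -1.65 and -2.97 for IFITM1. Set directly against shRNA #1, the log2 ratio came to 7.07 for PTGFRN (edgeR adjusted p = 2.02e-09), 3.85 for MAL2 (2.38e-12) and -4.32 for CLDN11 (3.02e-11), against 0.30 for CTH (0.000184). The levels of PTGFRN and MAL2 were thus higher, and that of CLDN11 lower, with shRNA #2 than with shRNA #1.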

How the data were processed

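RNA-seq was performed in MDA-MB-231 cells with NS shRNA, ASAH1 shRNA #1 or ASAH1 shRNA #2, 3 libraries each. Total RNA was selected with oligo-dT beads and made into strand-specific (dUTP) libraries. Per the submitters' notes and the methods, the authors used Trimmomatic 0.36 for trimming and STAR 2.7.1a for alignment to hg38, counted reads on UCSC genes with HTSeq and normalized the counts with DESeq2 1.28, separately for each hairpin with NS shRNA. Another paragraph of the methods names a pipeline with RSEM and edgeR. The deposited signal values are read counts divided by a size factor per library. All per-sample columns matched a library, and 6 columns of the authors' own comparison (mean, fold change, error, statistic, p-values) were not used. In each library 100% of values were a whole number of reads times 1 step (tolerance 1e-06), so reads were recovered. A count of few reads limits precision, and arms of 3 libraries limit every test.

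Genes with a mean of at least 10 over the 6 libraries of the comparison were tested with limma 3.58.1 (intensity trend, log2(value + 1), two-sided, Benjamini-Hochberg adjusted p below 0.05) in R 4.3.3. edgeR 4.0.16 and DESeq2 1.42.0 on the recovered reads, pseudocounts of 0.1 and 5, no filter, a mean of at least 50, no trend, upper quartile scaling, 1 fit of 9 libraries, a replicate block and leaving out each library were alternatives, and counts without 2 chromosome segments were added after the data were seen. The fits were also run on simulated counts in which far fewer genes changed than were called here. That run cannot show how the fits behave where most genes change. Tables were made with Python 3.11.15 and pandas 2.3.3 and drawn with matplotlib 3.10.9.

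The gene lists and the comparison itself were chosen with earlier results of these data known. Named were ASAH1, ACTB and GAPDH; among risers and among fallers, the 15 of greatest fold change and the 8 of greatest difference in means, with a mean of at least 100 and no overlap between groups; in each list the 2 members up and the 2 down with the largest fold change and a mean of at least 50, and regulators that name a list; and genes read almost only in 1 group. Other genes were named after their values were seen, as examples. 13988 of the 14250 symbols matched RefSeq (GRCh38.p14) for positions. No sequence of the hairpins is used here, and some members of the lists are counted but not reported by name here.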

Additional observations from a re-analysis of the deposited data

Results flagged for a closer look

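Of the 185 genes that the naming rule gave, 18 changed in opposite directions with the 2 hairpins, each at a limma adjusted p below 0.05. Their difference passed edgeR's quasi-likelihood test on all 9 libraries. Opposite calls on the same reads made that outcome likely in advance, so this test adds no separate support. Of these, 17 are given here. The matching share over all genes tested is not given, so whether 18 is many or few cannot be read from it. The naming rule favoured large changes with shRNA #2. The 11 that rose with ASAH1 shRNA #2 and fell with ASAH1 shRNA #1 had log2 ratios of shRNA #2 to shRNA #1 of 3.75 for FBXL16, 3.40 for SLC5A3, 0.95 for ENO1, 2.58 for CERS1, 0.93 for TFEB, 0.45 for MAD2L1, 3.45 for CDH11, 2.19 for MMP16, 1.79 for PLAT, 1.64 for JAG2 and 2.20 for TNFRSF10D. Among them, the myo-inositol carrier SLC5A3 had 1.94 with shRNA #2 and -1.47 with shRNA #1, the mesenchymal cadherin CDH11 2.63 and -0.83, and the plasminogen activator PLAT 1.41 and -0.39. The 6 that fell with shRNA #2 and rose with shRNA #1 had log2 ratios of -4.50 for CSF3, -2.78 for PHGDH, -1.41 for SOD2, -1.66 for FN1, -3.04 for PLAU and -1.70 for TAGLN. For PLAU, on the long arm of chromosome 10, the log2 fold changes were -1.70 with shRNA #2 and 1.33 with shRNA #1, and for fibronectin FN1 -1.004 and 0.64. CERS1 lost its call with shRNA #2 when NS shRNA replicate 2 or shRNA #2 replicate 1 was left out. MAD2L1 lost its call with shRNA #2 under upper quartile scaling.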

How the results depend on the processing

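The 4780 higher and 4758 lower genes numbered from 4281 to 4709 and from 4301 to 4603 when each of the 6 libraries was left out in turn, and from 3860 to 4908 and from 4225 to 5467 under the other 10 alternatives. edgeR called 4786 higher and 4761 lower, and DESeq2 4651 and 4675. Upper quartile scaling moved the median of all genes from 0.01 to -0.08 and gave 3860 higher and 5467 lower genes, and the cause was not tested. The log2 fold change of ASAH1 ran from -2.72 to -2.61. The number of changed members stayed within 1.5 times in each of the 36 lists under all 16 alternatives and without the 2 chromosome segments, the latter chosen after seeing the data and leaving 4341 higher and 4383 lower genes. Of 2960 values of named genes, 2949 kept direction and call and 10 lost the call, for CERS1, TALDO1, NFE2L2, MAD2L1 and FOS, and the cause was not tested. RELA, which did not pass, reversed to -0.0071 under upper quartile scaling. Genes differing between the hairpins numbered 9080 with DESeq2 and from 8222 to 8908 with one library left out.

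Replicate numbers did not pair the libraries: deviations of NS shRNA and shRNA #2 libraries of the same number correlated at -0.0982, -0.177 and -0.316. With the replicate block, 4246 genes were higher and 4280 lower, and 8590 differed between the hairpins. No named gene changed its call under the replicate block. Arms of 3 libraries, 1 hairpin and 1 nonspecific hairpin limit the comparison, and genes with few reads have wide errors.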
